A study of Mus musculus with 24 samples.

Results

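Stat3 and 9 other genes of interleukin-6 (IL-6) family signaling were followed in whole kidneys of a mouse model of polycystic kidney disease. They were taken as the rows of the count table whose symbol is Lif, Il6st, Osmr, Lifr, Il6ra, Il11ra1, Jak2, Stat3, Socs3 or Bcl3, which gave 10 of 54532 rows, and all 10 were among the 22570 genes with enough reads to be tested. RNA was sequenced from 24 C57BL/6 mice (the J substrain in the study's methods) aged 18 days, with 1 library per mouse. Pkd1 encodes polycystin-1, and every mouse had RC as 1 Pkd1 allele, a missense form with less mature protein. In RC/+ mice (n = 3) the second Pkd1 allele was floxed and no Cre was present. In RC/- mice (n = 5), the cystic group, Ksp-Cre inactivated the floxed allele in the tubule cells in which the Ksp promoter is active, so Cre and the cystic genotype cannot be told apart. In the D18 line (founder 3) and the D53 line (founder 2) the miR-17 binding motif had been deleted from the RC allele, and each line descends from 1 founder. They contributed RC/+ D18 (n = 3), RC/+ D53 (n = 3), RC/- D18 (n = 5) and RC/- D53 (n = 5) mice. The edited RC/- groups are called cystic by genotype. The study reports that at this age the deletion relieved nearly all of their cystic disease, with kidney weight and blood urea nitrogen close to normal. No founder is given for RC/+ and RC/- mice, and the study bred edited and unedited genotypes from the same pairs.

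IL-6 family cytokines, among them IL-6, IL-11, LIF and oncostatin M, bind cytokine-specific receptor chains that pair with a shared signaling chain, gp130. Receptor-bound Janus kinases then phosphorylate STAT3, which enters the nucleus and induces target genes. One of these targets, SOCS3, binds gp130 and the kinases and shuts the signal down. In the kidney the pathway is known for its activity in injured and cystic tubules. The libraries measure transcript levels and hold no information on STAT3 phosphorylation.

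Libraries held 20.4 to 30.8 M counts. Values are CPM, the counts of a gene divided by the library total in M. Of 9 kidney epithelium markers all were tested, and their summed level was 10900 to 13700 CPM in the noncystic libraries and 5230 to 9120 CPM in RC/-. The 8 libraries numbered 20 to 27, which are 3 of 5 RC/- D18 and all 5 RC/- D53 libraries, stood apart in skeletal muscle transcripts: 10 markers summed to 188 to 245 CPM there and to 11.5 to 26.4 CPM in the other 16. Comparisons that use these libraries are therefore also given with libraries 20 to 27 as a covariate, which for D53 rests on the split within RC/- D18, or without RC/- D18 replicates 20 to 22. Pkd1 counts (1065 to 1857 per library) passed the test in none of the 8 comparisons of groups. Whole-gene counts do not separate the floxed, RC and edited alleles.

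The first question was which of these genes differed between cystic and noncystic kidneys of unedited mice. In RC/- against RC/+, 8 of 10 genes were higher and 2 lower at an adjusted p below 0.05 (limma-trend, Benjamini-Hochberg over all tested genes), where 25.5% of all tested genes were higher and 12.2% lower. The libraries of the groups did not overlap for 9 of 10 genes, against 37.7% of all tested genes. Lif, the cytokine, and Socs3, the feedback inhibitor, had the largest differences among the 10, at 11.9-fold and 9.52-fold. Bcl3, Osmr, Stat3 and Il6st followed at 4.61-fold, 4.05-fold, 2.68-fold and 2.02-fold. The median log2 difference over the 10 genes was 1.22, beside 0.14 over all tested genes. Scaling by the trimmed mean of M-values (TMM) moved the latter to 0.01 and left 9 of 10 genes past the test, without Jak2. By p-value, Socs3 ranked 3 and Stat3 ranked 6 among the 22570 genes.

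**Figure D1:**
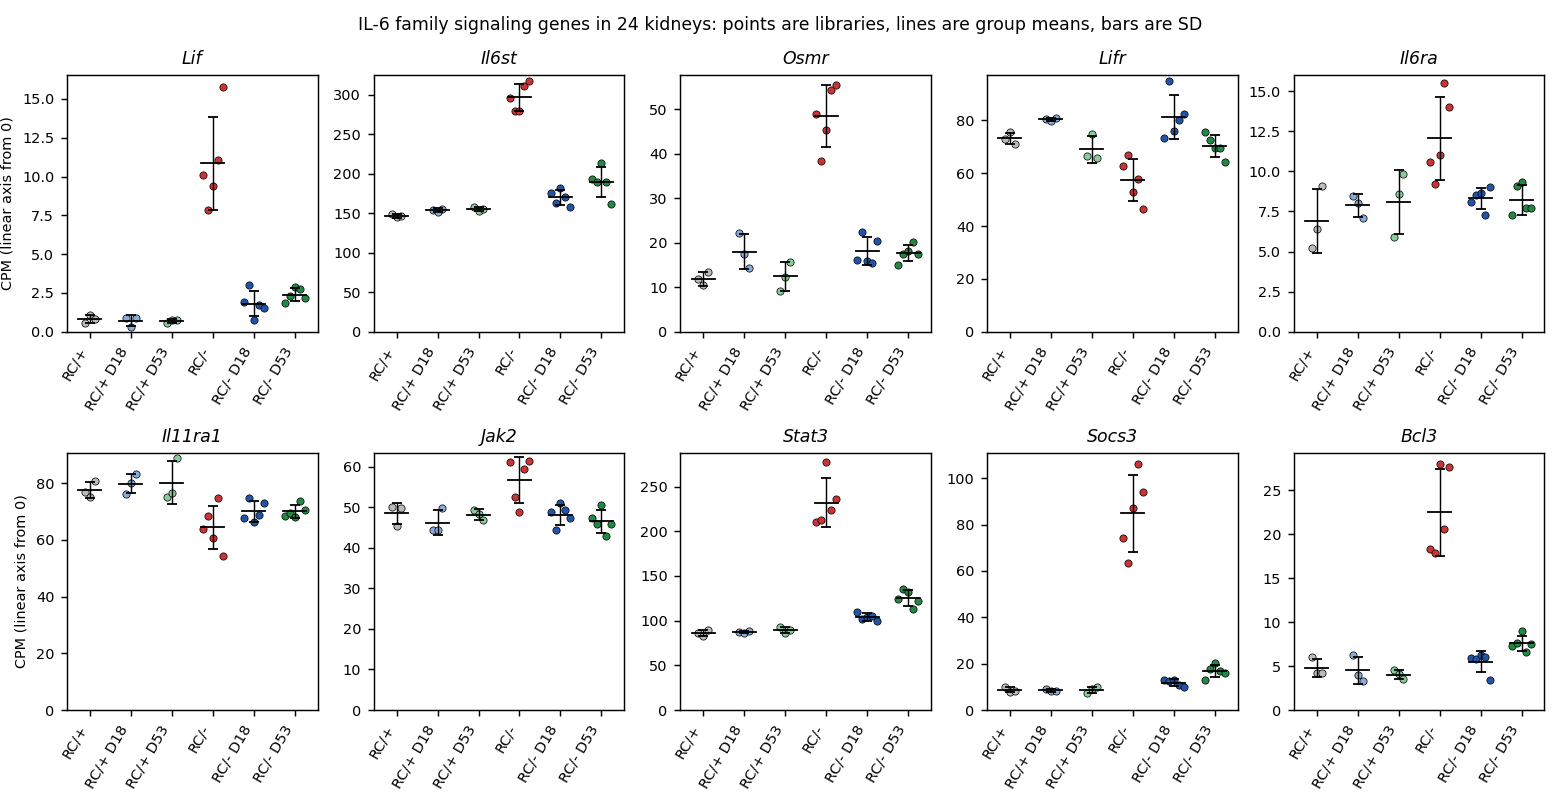
CPM of the 10 genes (linear vertical axes from 0) in the 24 libraries by group; points are libraries, horizontal lines group means and bars SD. For Stat3, Socs3, Lif, Osmr, Il6st and Bcl3 the 5 RC/- libraries sit above all others; for Lifr and Il11ra1 they sit low.

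Lif encodes leukemia inhibitory factor, which signals through LIFR and gp130. Its level was 0.572, 1.11 and 0.843 CPM in RC/+ replicates 4 to 6, and 10.1, 7.85, 9.41, 11.1 and 15.8 CPM in RC/- replicates 13 to 17. Every RC/- kidney lay far above every RC/+ kidney. The log2 difference was 3.58 (SE 0.34, 95% confidence interval 2.87 to 4.28, adjusted p = 1.48e-08). RC/+ libraries held 14 to 25 Lif counts, so counting error is a large part of the spread there. In RC/- D18 replicates 18 to 22 the level was 1.93, 3.02, 0.785, 1.74 and 1.56 CPM. In RC/- D53 replicates 23 to 27 it was 1.88, 2.32, 2.86, 2.73 and 2.2 CPM. All edited cystic kidneys were thus below all unedited ones, and all but RC/- D18 replicate 20 were above the noncystic range of 0.285 to 1.11 CPM.

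Il6st encodes gp130, the chain that all these cytokines share. It stood at 149, 145 and 146 CPM in RC/+ and at 296, 280, 279, 311 and 317 CPM in RC/-, a log2 difference of 1.02 (SE 0.069, adjusted p = 8.86e-11). The groups did not overlap, and the spread within groups was the narrowest of the 10 genes (SD of 0.088 on the log2 scale). In RC/- D18 it was 176, 163, 182, 171 and 158 CPM, and in RC/- D53 it was 194, 189, 214, 189 and 162 CPM. These lay below every RC/- library and above the noncystic range of 145 to 158 CPM, which RC/- D18 replicate 22 passed by less than the rounding of these values.

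Osmr encodes the oncostatin M receptor chain, which pairs with gp130 for oncostatin M and with IL31RA for IL-31. It was 11.8, 10.4 and 13.5 CPM in RC/+ and 49, 38.3, 45.3, 54.3 and 55.5 CPM in RC/- (log2 difference 2.02, SE 0.17, adjusted p = 1.69e-09). RC/- D18 kidneys held 16.2, 22.5, 15.9, 15.4 and 20.4 CPM, and RC/- D53 kidneys held 15.1, 17.5, 18.1, 20.2 and 17.4 CPM. The edited cystic kidneys were below every RC/- kidney, and both groups overlapped the noncystic kidneys of their own line. Among noncystic kidneys, RC/+ D18 held 22.2, 17.4 and 14.4 CPM, above all RC/+ kidneys, with a log2 difference of 0.58 that did not pass the test (SE 0.18, adjusted p = 0.983).

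The other receptor chains moved less, and not in one direction. Lifr, the LIF receptor, was 70.9 to 75.4 CPM in RC/+ and 46.5 to 66.9 CPM in RC/-, without overlap (log2 difference -0.36, SE 0.093, adjusted p = 0.00336). It was thus lower in the same kidneys in which its ligand gene Lif was higher. Il11ra1, the IL-11 receptor alpha chain, was 75.2 to 80.6 CPM in RC/+ and 54.2 to 74.6 CPM in RC/- (log2 difference -0.28, SE 0.08, adjusted p = 0.00758). Relative to the median of all genes the differences were -0.5 for Lifr and -0.42 for Il11ra1. Il6ra, the IL-6 receptor alpha chain, was higher, at 5.19 to 9.07 CPM in RC/+ and 9.21 to 15.5 CPM in RC/- (log2 difference 0.81, SE 0.18, adjusted p = 0.000767). Il11ra1 has near-identical copies: its longest transcript matches Gm13305 at 98.6% over 2578 bases, and Gm13305 held 1 to 7 counts per library, so its own count is uncertain by reads that map to both.

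Jak2, a kinase bound to gp130, was nearly level. It was 50.1, 45.4 and 49.8 CPM in RC/+ and 61.2, 52.6, 48.8, 59.5 and 61.4 CPM in RC/-, and RC/- replicate 15 lay inside the RC/+ range. The log2 difference of 0.22 (SE 0.077, adjusted p = 0.025) was 0.08 relative to the median of all genes. With TMM scaling it was 0.08 with an adjusted p of 0.402, and it also missed the test without RC/+ replicate 5 or without RC/- replicate 13, 16 or 17.

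Stat3 encodes the transcription factor at the end of the cascade and lies on the minus strand of chromosome 11 (GRCm38, chr11:100885098-100939540). It was 86.6, 82.4 and 89.6 CPM in RC/+, 87.3, 86.3 and 88.5 CPM in RC/+ D18, and 93.4, 86.5 and 90.1 CPM in RC/+ D53. It was 210, 213, 278, 224 and 236 CPM in RC/-, a log2 difference of 1.42 from RC/+ (SE 0.075, 95% confidence interval 1.27 to 1.58, adjusted p = 2.38e-12). RC/- D18 kidneys held 110, 102, 104, 105 and 99.2 CPM, and RC/- D53 kidneys held 124, 135, 132, 113 and 122 CPM. The levels formed 4 steps whose libraries did not overlap, from the 9 noncystic kidneys (82.4 to 93.4 CPM) through RC/- D18 and RC/- D53 to RC/-. The step between RC/- D18 and RC/- D53 was 0.26 on the log2 scale and did not pass the test over all genes (SE 0.065, adjusted p = 0.0841). RC/- D18 differed from RC/+ D18 by 0.25 and did not pass it either (SE 0.075, adjusted p = 0.223).

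Socs3 encodes the feedback inhibitor of gp130 signaling and is a known STAT3 target gene. It was 10, 7.96 and 8.31 CPM in RC/+, 9.05, 8.15 and 8.26 CPM in RC/+ D18, and 7.36, 9.19 and 9.91 CPM in RC/+ D53. It was 74.1, 63.5, 87.1, 106 and 94 CPM in RC/- (log2 difference from RC/+ 3.25, SE 0.15, 95% confidence interval 2.94 to 3.56, adjusted p = 2.84e-13). RC/- D18 kidneys held 13, 12.6, 12.8, 11 and 9.91 CPM and RC/- D53 kidneys held 12.9, 17.5, 20.5, 16.9 and 16.1 CPM. No edited cystic kidney came near the lowest RC/- value, and the D18 and D53 ranges met at about 13 CPM.

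Bcl3 encodes an I-kappa-B family protein that acts with NF-kappa-B subunits in the nucleus and is also known as a STAT3 target. It was 6, 4.16 and 4.21 CPM in RC/+ and 18.3, 17.9, 28, 20.6 and 27.6 CPM in RC/- (log2 difference 2.2, SE 0.21, adjusted p = 1.63e-08). RC/- D18 kidneys held 5.96, 5.8, 6.24, 6.07 and 3.38 CPM, within or near the noncystic range of 3.35 to 6.22 CPM. RC/- D53 kidneys held 7.26, 7.65, 8.98, 6.56 and 7.47 CPM, above that range and below every RC/- kidney. Of the exon bases of Bcl3, 6.51% overlap Gm16175 on the opposite strand, and the strand setting of the counting is not given in the sources used here.

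The promoters were searched for the letters TTCNNNGAA, a form of the STAT binding motif that reads the same on both strands, because Stat3 and several of its known target genes were higher in the same kidneys. The windows ran from 250 bases before to 50 bases after each start (RefSeq, GRCm38.p6), and 9.55% of the 27025 genes with a promoter sequence (8.3% of all 32851 windows) hold these letters. All 10 genes had a promoter sequence, and Socs3 was the 1 of 10 genes with the motif. Of 51 other pathway genes with a promoter sequence 7 held it. Shown are the Socs3 site and the sites of 3 pathway genes that were higher in RC/- and whose site lay before the start. The target gene Irf1 encodes an interferon-responsive transcription factor, and Fgb (fibrinogen beta chain) and Serpina3g (a serine protease inhibitor) are acute-phase genes. Capitals mark the motif and 10 bases are given on each side, in the direction of transcription.
Socs3, chr11:117969502-117969530, minus strand: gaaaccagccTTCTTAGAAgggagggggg
Irf1, chr11:53769914-53769942, plus strand: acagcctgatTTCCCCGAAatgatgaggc
Fgb, chr3:83050007-83050035, minus strand: gactcaatgaTTCGAGGAAccccctgtgt
Serpina3g, chr12:104236104-104236132, plus strand: taagttatagTTCCCAGAAatcacccggt
The Socs3 motif ran from 154 to 146 bases before the RefSeq start. In the GENCODE M21 annotation that place lies inside the span of a Socs3 transcript but in no exon, and the other sites lie in no annotated gene feature. In RC/- against RC/+ the log2 difference was 1.09 for Irf1, 1.45 for Fgb and 2.29 for Serpina3g (adjusted p = 8.82e-07, 0.000229 and 1.99e-07). Fga and Bcl6 also hold the motif and did not pass the test, and Il31ra holds it and was lower. Cish was higher and holds it at and after the start, so its sites are not among those shown. A match describes letters in the window and was not tested as a binding site.

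The next question was whether these genes differed between edited and unedited RC/- kidneys. The edit and the milder disease that the study reports in edited mice cannot be told apart here. In RC/- D18 against RC/-, 8 of 10 genes were lower and Lifr was higher, where 26.9% of all tested genes were lower and 14.3% higher. In RC/- D53 against RC/- again 8 were lower and Lifr higher, where 18.9% of all tested genes were lower and 11.3% higher. Libraries did not overlap for 8 of 10 genes in D18 (27.8% of all tested genes) and for 6 of 10 in D53 (18.8%). Both comparisons share the RC/- libraries. The median log2 difference over the 10 genes was -0.98 for D18 and -0.77 for D53, beside -0.1 and -0.08 over all tested genes.

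Socs3 fell by 2.82 in D18 and by 2.33 in D53 on the log2 scale (SE 0.13 each, adjusted p = 8.36e-13 and 6.06e-11). Lif fell by 2.61 and 2.12 (SE 0.29 each, adjusted p = 1.57e-07 and 6.45e-06), and Bcl3 by 2.02 and 1.54 (SE 0.18 each, adjusted p = 6.49e-09 and 8.99e-07). Stat3 fell by 1.15 and 0.89 (SE 0.065 each, adjusted p = 8.73e-12 and 1.58e-09). The receptor genes Osmr and Il6st fell by 1.42 and 0.8 in D18 and by 1.44 and 0.65 in D53. Lifr rose, by 0.51 in D18 (adjusted p = 1.73e-05) and by 0.3 in D53 (adjusted p = 0.00575). Il11ra1 differed by 0.13 in each line and did not pass the test (adjusted p = 0.139 and 0.171). With TMM scaling it was higher, by 0.25 in D18 and 0.22 in D53 (adjusted p = 0.00822 and 0.0259).

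Il6ra and Jak2 fell least of the 8. Il6ra fell by 0.51 and 0.53 (adjusted p = 0.00957 and 0.0104) and Jak2 by 0.23 and 0.28 (adjusted p = 0.00669 and 0.00217). Without RC/- D18 replicates 20 to 22, Il6ra stayed at -0.51 and no longer passed the test in D18 (adjusted p = 0.0833). Stat3 then differed by -1.12, Socs3 by -2.7 and Lif by -2.09, all past the test. Il6ra also missed the test in D18 with libraries 20 to 27 as a covariate. With TMM scaling Jak2 differed by -0.12 in D18 and did not pass (adjusted p = 0.142). With libraries 20 to 27 as a covariate 5 of 10 genes passed in D53, namely Stat3 (-0.84), Socs3 (-2.14), Osmr (-1.29), Il6st (-0.65) and Bcl3 (-1.32), while Lif differed by -1.26 with an adjusted p of 0.114.

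**Figure D2:**
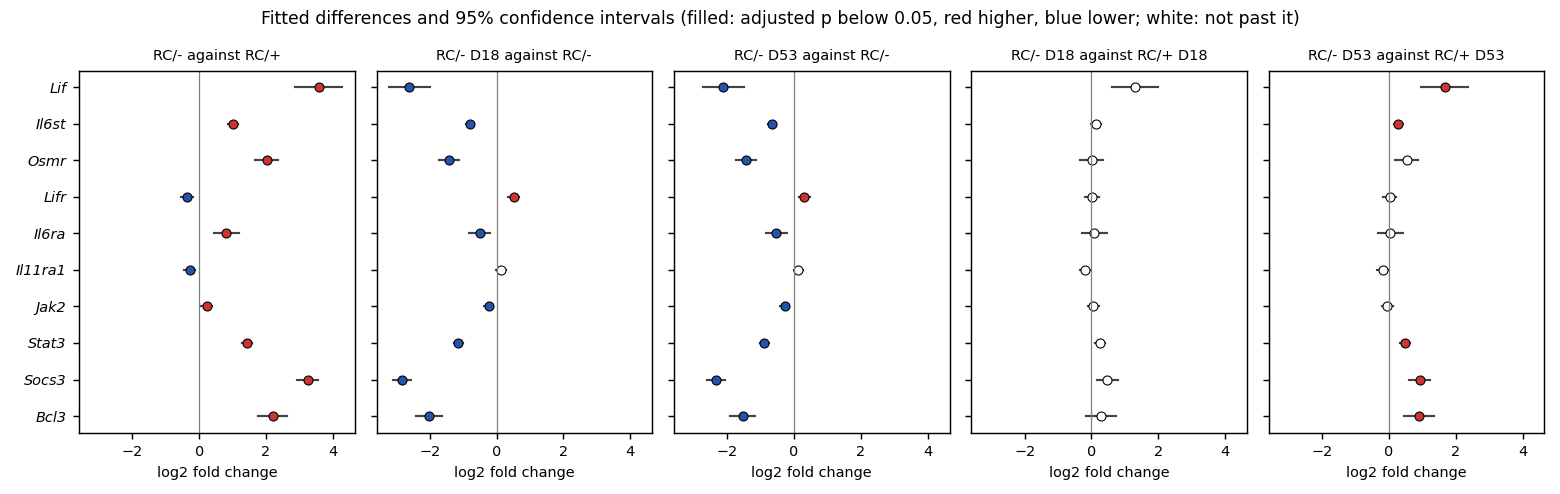
Fitted log2 fold changes (points) and 95% confidence intervals (lines) of the 10 genes in 5 comparisons; filled points passed an adjusted p of 0.05, red higher and blue lower, and white points did not. Socs3 moves from 3.25 in RC/- against RC/+ to 0.47 within the D18 line and 0.92 within the D53 line.

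Within the edited lines, cystic kidneys were compared with noncystic kidneys of the same line. In RC/- D18 against RC/+ D18, 0 of 10 genes passed the limma-trend test, where 0.266% of all tested genes did. Unadjusted, 5 of 10 had a p below 0.05 (8.91% of all tested genes), edgeR passed 0 and DESeq2 passed 1, which was Lif. Stat3 was higher by 0.25 and Socs3 by 0.47 on the log2 scale in fits that missed the threshold (adjusted p = 0.223 and 0.263), and for both genes the 5 cystic libraries lay above the 3 noncystic ones. Libraries did not overlap for 4 of 10 genes, against 5.76% of all tested genes. The 95% confidence intervals, 0.1 to 0.41 for Stat3 and 0.16 to 0.78 for Socs3, lay above 0.

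In RC/- D53 against RC/+ D53, 5 of 10 genes were higher, where 2.6% of all tested genes passed in either direction. Libraries did not overlap for 6 of 10, against 11.6%. Lif was higher by 1.67 (SE 0.34, adjusted p = 0.00526), Socs3 by 0.92 (SE 0.15, adjusted p = 0.000651), Bcl3 by 0.9 (SE 0.21, adjusted p = 0.0173), Stat3 by 0.47 (SE 0.075, adjusted p = 0.000392) and Il6st by 0.28 (SE 0.069, adjusted p = 0.0226). Osmr was 0.53 higher and did not pass (adjusted p = 0.0927). Without RC/+ D53 replicate 11 or without RC/- D53 replicate 25 only 3 genes passed, as also with libraries 20 to 27 as a covariate, and these were Stat3, Socs3 and Lif under the covariate. In the same comparison 8 of 15 macrophage markers were higher (median log2 difference 0.55), with sums of 369 to 425 CPM in RC/+ D53 and 502 to 802 CPM in RC/- D53, and their part in the result was not tested.

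The difference between edited and unedited mice was itself tested, as the cystic difference within an edited line minus that in unedited mice. For D18, 7 of 10 genes had a smaller cystic increase, where 10.8% of all tested genes were lower and 6.31% higher in this contrast. For D53 it was also 7 of 10, where 6.55% were lower and 4.73% higher. Socs3 differed by -2.78 and -2.33, Lif by -2.27 and -1.91, Stat3 by -1.17 and -0.95, and Il6st by -0.87 and -0.73 on the log2 scale. Lifr differed by 0.37 and 0.39 and missed the threshold (adjusted p = 0.0528 and 0.0576), but passed it with TMM scaling (0.019 and 0.0207). With libraries 20 to 27 as a covariate 4 of 10 genes passed for D53. Lif then differed by -1.05 (adjusted p = 0.426), Bcl3 by -1.09 (0.167) and Il6ra by -0.76 (0.277), none past the test, and Il6ra also missed it for D18 (-0.73, adjusted p = 0.117). Of the 15 macrophage markers, 13 were lower in this contrast for D18 and 10 for D53. Both tests use the same RC/- and RC/+ libraries.

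Between the edited cystic groups, RC/- D53 against RC/- D18, 0 of 10 genes passed the limma-trend test, where 0.266% of all tested genes did. Unadjusted, 5 of 10 had a p below 0.05 (13.3% of all tested genes), and edgeR passed 0 and DESeq2 1, which was Socs3. Socs3 was 0.49 higher in D53 (95% confidence interval 0.22 to 0.76, adjusted p = 0.118) and Bcl3 0.49 higher (0.11 to 0.86, adjusted p = 0.267). In noncystic kidneys the deletion left no gene of the 10 past the test: 0 of 10 in RC/+ D18 against RC/+ (0.00443% of all tested genes) and 0 of 10 in RC/+ D53 against RC/+ (0%). Unadjusted, 1 and 0 of them had a p below 0.05 (4.49% and 2.33% of all tested genes), and edgeR and DESeq2 passed 0 in both. For Stat3 the noncystic intervals were -0.15 to 0.19 in D18 and -0.11 to 0.23 in D53.

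To set the genes beside each other, counts were divided by exon length and scaled to a common library sum, which gives TPM, the per-length counterpart of CPM. In RC/+ kidneys the order of the levels in TPM was Il11ra1 (49.2 ± 2.08, SD, n = 3), Il6st (37.4), Jak2 (27.3), Stat3 (25.7), Lifr (19.3), Socs3 (8.6), Bcl3 (5.49), Osmr (2.78), Il6ra (2.26) and Lif (0.548), where the ranges of Jak2 and Stat3 and those of Osmr and Il6ra overlapped. In RC/- kidneys Socs3 (88.5 ± 16.2, SD, n = 5), Il6st (80.7) and Stat3 (73.5) came first with overlapping ranges. Il11ra1 (43.4), Jak2 (34.1), Bcl3 (27.4), Lifr (16.1), Osmr (12.1), Lif (7.55) and Il6ra (4.21) followed. Among these, Jak2 overlapped both Il11ra1 and Bcl3, and Osmr overlapped both Lifr and Lif. Socs3 thus stood at place 6 in RC/+ and at place 1 in RC/-. In RC/- D18 and RC/- D53 it was again at place 6, at 11.9 and 16.7 TPM, after Il11ra1, Il6st, Stat3, Jak2 and Lifr, with a range that overlapped that of Lifr in D53. Lif stood last in all groups but RC/-.

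**Figure D3:**
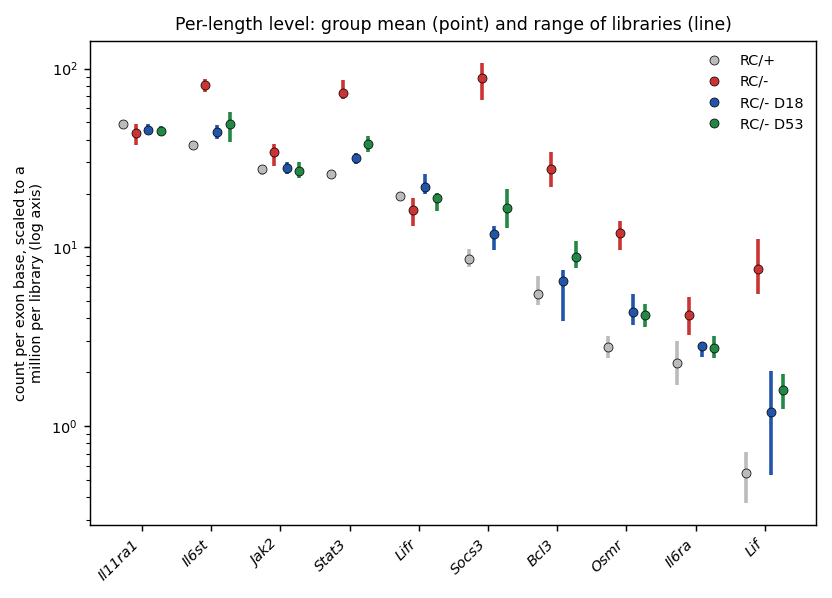
Level in TPM (log axis) of the 10 genes, ordered by RC/+; points are group means and lines the range of libraries in RC/+, RC/-, RC/- D18 and RC/- D53. Socs3 rises from 8.6 in RC/+ to 88.5 in RC/-, past Il11ra1.

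Of 67 other genes of the pathway 64 were tested. In RC/- against RC/+, 42 were higher and 4 lower, where 25.5% of all tested genes were higher and 12.2% lower. The median log2 difference was 0.67, beside 0.14 over all tested genes. With TMM scaling 33 were higher and 4 lower, where 7740 of the 22570 tested genes passed in either direction. In RC/- D18 against RC/- 42 were lower and 3 higher (median -0.54), where 26.9% of all tested genes were lower and 14.3% higher. In RC/- D53 against RC/- 39 were lower and 2 higher (median -0.5), where 18.9% were lower and 11.3% higher. With libraries 20 to 27 as a covariate the D53 counts were 21 lower and 0 higher, where 1796 of all tested genes passed in either direction.

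Of the 10 other ligands 5 were higher in RC/-, where 25.5% of all tested genes were higher. Clcf1, a cytokine that signals through the CNTF receptor, rose from 11.5 ± 0.389 to 28.7 ± 3.78 CPM (SD, n = 3 and 5, adjusted p = 9.48e-07). Il11 rose from 10 to 17 counts per library in RC/+ to 37 to 49 in RC/- (adjusted p = 0.000593). Il6 itself was near 0: RC/+ libraries held 0 or 1 counts and RC/- libraries 4 to 15 (adjusted p = 0.000266), RC/- D18 libraries 0 to 2 and RC/- D53 libraries 0 to 4. Ctf2, a cardiotrophin gene, held 2 to 5 counts in RC/+ and 5 to 13 in RC/- and passed the test with library totals (adjusted p = 0.0414) but not with TMM scaling (0.0677). Cntf (1 to 10 counts in these groups) and Il27 (1 to 6 counts) did not pass, and Osm, the ligand of Osmr, differed by 0.5 (adjusted p = 0.188).

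Of 3 further receptor genes tested, Il27ra, which pairs with gp130 for IL-27, was higher at 3.74 ± 1.12 against 1.73 ± 0.159 CPM (adjusted p = 0.00287). Il31ra was lower, at 2 to 6 counts per library in RC/- against 7 to 20 in RC/+ (adjusted p = 0.0228). The Il11ra2 row used held 1 count in 1 library and was not tested.

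Of 7 kinases and STATs 5 were higher in RC/- (25.5% of all tested genes), or 4 with TMM scaling. Jak3, which serves common gamma chain receptors, rose from 22.4 ± 1.15 to 46.9 ± 4.49 CPM (adjusted p = 1.63e-08). Tyk2 was higher by 0.57 and Stat6 by 0.31 on the log2 scale, less than the 1.42 of Stat3. Of 10 inhibitors 7 were higher (25.5% of all tested genes). With TMM scaling 3 of 10 were higher, not above the share of all tested genes that passed in either direction (7740 of 22570). Cish and Socs2, both of the SOCS family, were higher by 0.8 and 1.1, less than the 3.25 of Socs3, and the phosphatase genes Ptpn6 and Ptpn2 by 0.39 and 0.36. Ptpn2 missed the threshold with TMM scaling (adjusted p = 0.0519).

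Of 20 target genes 14 were higher and 3 lower in RC/- (25.5% and 12.2% of all tested genes), with a median log2 difference of 0.63. Timp1, an inhibitor of metalloproteinases, rose from 1.15 ± 0.268 to 19.9 ± 7.63 CPM (adjusted p = 8.36e-09). Tnfrsf12a, the receptor of the cytokine TWEAK, rose from 22.3 ± 1.62 to 101 ± 20 CPM (adjusted p = 9.49e-11). Myc was higher by 1.57 and Mcl1, a survival gene of the BCL2 family, by 0.69. Of 14 acute-phase genes tested 10 were higher (25.5% of all tested genes), with a median log2 difference of 1.9. Saa3 was at 0 counts in RC/+ and at least 13-fold higher in RC/- (floor of 3 counts per library), and the median stayed at 1.9 with Saa3 at that bound.

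Lcn2 and C3 had the largest fitted log2 differences of the 64 genes, 5.65 and 4.09. Lcn2, a siderophore-binding protein known as a marker of tubule injury, rose from 6.47 ± 1.43 to 334 ± 95.7 CPM in RC/- (SD, n = 3 and 5, adjusted p = 1.24e-10). In the edited cystic groups it was 13.5 ± 5.81 CPM (D18) and 29.2 ± 17.1 CPM (D53). C3, the central complement protein, rose from 11 ± 0.772 to 215 ± 113 CPM (adjusted p = 5.95e-10) and was 16.9 ± 4.55 and 15.5 ± 3.7 CPM in the edited cystic groups. Fgg, the fibrinogen gamma chain, rose from 3.12 ± 0.485 to 15.9 ± 4.36 CPM, and Serpina3g from 2.69 ± 0.505 to 14 ± 4.58 CPM. The liver makes much of the acute-phase protein in blood, so liver markers are given beside this list. Of 7 liver markers tested 2 were higher in RC/- (Apoa1 and Ahsg) and 1, Ttr, lower, where 25.5% of all tested genes were higher and 12.2% lower. The median log2 difference of the liver markers was 1.93. Against RC/-, 1 of 7 was higher in RC/- D18 and 2 of 7 in RC/- D53, and 0 were lower in either. The liver medians were -1.55 (D18) and 0.03 (D53). In these comparisons 11 and 13 of the 14 acute-phase genes were lower, with medians of -1.89 and -1.65. Of all tested genes 26.9% (D18) and 18.9% (D53) were lower there, and 14.3% and 11.3% higher. Alb was 0.612 to 1.11 CPM in RC/+ and 0.633 to 73.1 CPM in RC/-. The 8 markers summed to 163 to 183 CPM in RC/+ and to 61.4 to 209 CPM in RC/-, and Ttr alone was 167 ± 10.3 and 57.9 ± 13.2 CPM. Serpina1c was at 0 in RC/+. With single libraries left out, 9 to 12 acute-phase genes passed the test. The part of liver transcripts in the result was not tested.

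Within the edited lines, 0 of 64 other pathway genes passed the limma-trend test in D18, where 0.266% of all tested genes did. Of the 64, 8 had an unadjusted p below 0.05, beside 8.91% of all tested genes, and 0 passed by edgeR and 0 by DESeq2. In D53, 7 of 64 were higher, where 2.6% of all tested genes passed in either direction. The 7 included Lcn2, higher by 1.81, Timp1 by 1.36 and Serpina3g by 1.08 on the log2 scale (adjusted p = 0.00867, 0.0407 and 0.0209). They also included the immediate-early genes Junb and Fos, higher by 0.76 and 0.74 (adjusted p = 0.00526 and 0.0371). This D53 count was 3 with libraries 20 to 27 as a covariate and 1 without RC/+ D53 replicate 11.

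**Figure D4:**
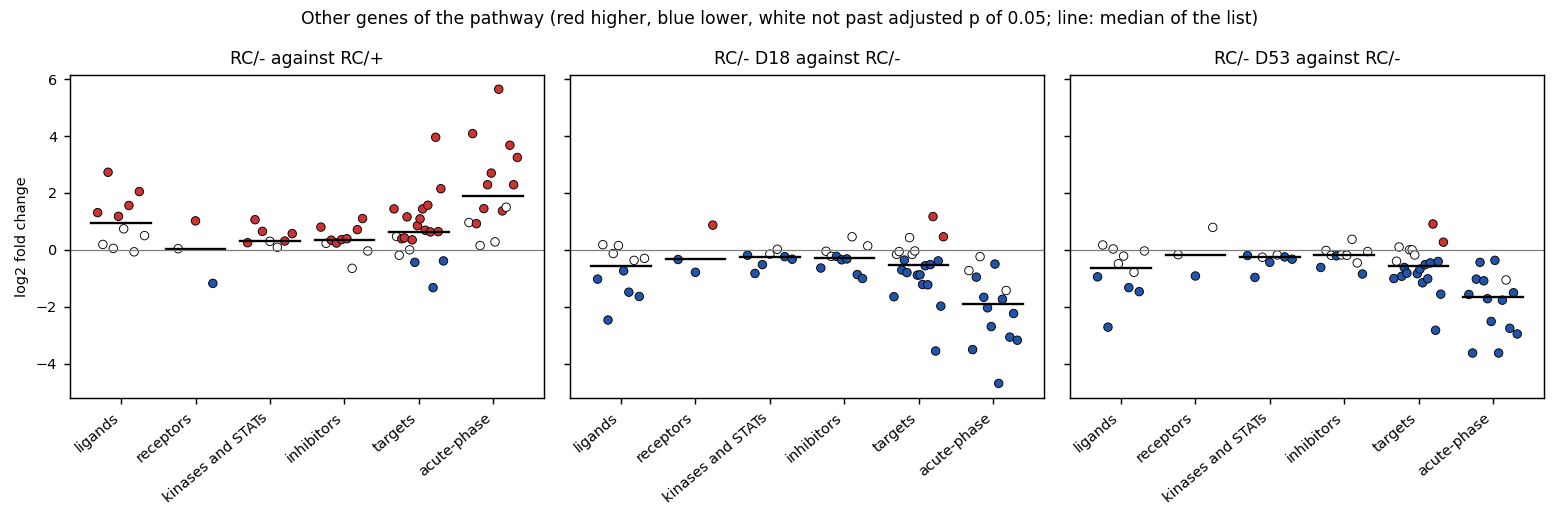
Log2 fold changes of the 64 other pathway genes tested, by list, in 3 comparisons; each point is a gene, red higher and blue lower at an adjusted p below 0.05, white not past it, and lines are list medians. The acute-phase list has a median of 1.9 in RC/- against RC/+, -1.89 in RC/- D18 against RC/- and -1.65 in RC/- D53 against RC/-.

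Markers of other cell types moved with these results. In bulk kidney, fewer cells of a type and less RNA per cell cannot be told apart. Of all tested genes 25.5% were higher and 12.2% lower in RC/- against RC/+. Against RC/-, 26.9% were lower in RC/- D18 and 18.9% in RC/- D53. All 15 macrophage markers were higher in RC/- against RC/+ and lower in both edited cystic groups against RC/-. Their summed level was 385 to 416 CPM in RC/+, 780 to 1520 CPM in RC/-, and 474 to 523 CPM (D18) and 502 to 802 CPM (D53) in the edited cystic groups. In RC/- replicates 13 to 17 it was 857, 780, 1140, 1520 and 1220 CPM, which is the order of the Socs3 values of these kidneys. Il6ra had the same order, and the other genes higher in RC/- did not. Stat3 and Bcl3 were highest in replicate 15, and Lif, Osmr, Il6st and Jak2 in replicate 17. Of 10 fibroblast markers 7 were higher in RC/-, with sums of 1520 to 2130 CPM in RC/+ and 3190 to 5210 CPM in RC/-. Of 9 kidney epithelium markers 6 were lower and 3 higher. The part of these cell types in the results was not tested. Neutrophil markers summed to 4.42 to 15.5 CPM in all libraries, and Camp was at 0 in RC/+, Mpo in RC/+ D18 and Ly6g in RC/+ D53. In RC/- against RC/+ 0 of 7 tested passed. In RC/- D53 2 of 7 were higher against RC/- (median log2 difference 1.11), where 11.3% of all tested genes were higher. Against RC/+ D53 it was 1 of 7 (median 1.42), where 2.6% of all tested genes passed in either direction. Their part was not tested either.

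**Figure D5:**
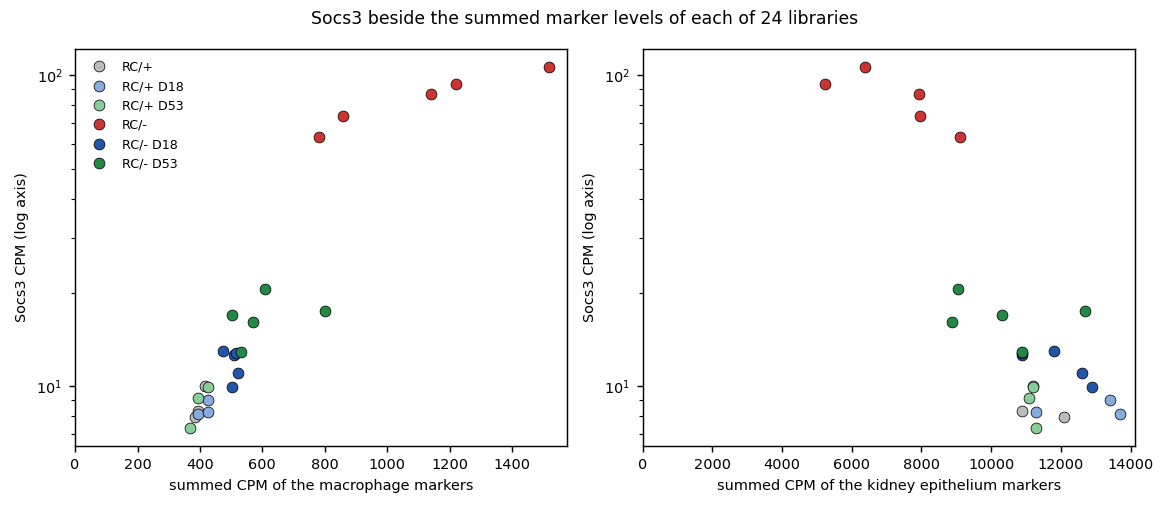
Socs3 CPM (log axis) against the summed CPM of 15 macrophage markers (left) and 9 kidney epithelium markers (right) in 24 libraries, colored by group. RC/- libraries lie at 780 to 1520 CPM of macrophage markers and 63.5 to 106 CPM of Socs3, RC/- D53 libraries at 502 to 802 and 12.9 to 20.5 CPM, and RC/- D18 libraries at 474 to 523 and 9.91 to 13 CPM.

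Genes outside the pathway were ranked by how closely their log2 CPM, centered on its mean, followed each of 3 genes over the 24 libraries. This used 11169 genes and the root mean square (RMS) difference of log2 values. Closest to Stat3 were Capn1 (0.12), the keratin gene Krt7 (0.13) and Sorbs2 (0.13), where the median gene differed by 0.5. Closest to Socs3 were Clu (0.23), the clusterin gene, Krt18 (0.35) and Il34 (0.39), where the median was 1.2. Closest to Osmr were Adcy7 (0.27), Tmem173 (0.3) and Prr15 (0.3), where the median was 0.7. Bcl3 was added to these after its values were seen: closest to it were Csf1 (0.24), Lyz2 (0.27) and Cd14 (0.27), genes known from macrophages and monocytes or their growth factor, where the median was 0.88, and Lyz2 is also among the 15 macrophage markers. The libraries share their group structure, so these likenesses describe a common pattern over groups.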

How the data were processed

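Whole-kidney RNA of 24 mice was sequenced by the study. The authors trimmed reads with Trim Galore 0.6.3, aligned them to GRCm38 with STAR 2.5.3a and deposited its raw counts per gene, without normalization; the strand column is not given in the sources used here. Of 54532 rows, 54409 matched GENCODE M21, 343 lacked a symbol, and 0 columns were left unused. Samples were grouped by genotype label.

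From the counts, log2 CPM (library totals, prior count 2) was tested by limma-trend (limma 3.58.1, edgeR 4.0.16, R 4.3.3) at a mean log2 CPM of at least -3, with 1 mean per group over 24 libraries, two-sided, and Benjamini-Hochberg adjustment over 22570 genes. The study's methods give this test and this minimum but not its design. Fold changes are on the log2 CPM scale with that prior, which understates low genes. Intervals are 95% and rest on separate mice; the 39 within-group pairs of libraries differed by more than sampling noise (chi-square over its degrees of freedom, 8.45 to 48.2). Lif in noncystic kidneys (7 to 25 counts) is the least precise of the 10 genes. Alternatives were TMM and DESeq2 size factors, edgeR quasi-likelihood, DESeq2 1.42.0, other filters, prior 0.5, covariates and libraries left out. Code was tested on simulated data. Near-identical transcripts were searched with BLAST 2.17.0. The 10 genes and all lists were chosen with earlier results of these data known. Named pathway genes were, per list, up to 4 with the lowest adjusted p in RC/- against RC/+, and ligands, receptors and STATs near 0 counts; others named were chosen after their values were seen. A few genes that this rule names are not reported here.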

Additional observations from a re-analysis of the deposited data

Results flagged for a closer look

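Bcl3 was 3.38 CPM in RC/- D18 replicate 22, while the other 4 libraries of that group held 5.8 to 6.24 CPM. Its gap to the nearest library was 0.846 of the group's range, beyond the limit for 5 samples, which chance exceeds in about 1 in 20 groups.

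For 7 of the 10 genes the cystic difference was smaller in an edited line than in unedited mice, by a test of that difference in the limma-trend model. In the D18 line the log2 differences were -2.78 for Socs3, -2.27 for Lif, -2 for Osmr, -1.91 for Bcl3, -1.17 for Stat3, -0.87 for Il6st and -0.74 for Il6ra, with adjusted p from 5.47e-08 (Socs3) to 0.0458 (Il6ra). In the D53 line they were -2.33 for Socs3, -1.91 for Lif, -1.48 for Osmr, -1.3 for Bcl3, -0.95 for Stat3, -0.73 for Il6st and -0.77 for Il6ra, with adjusted p from 1.94e-06 (Socs3) to 0.0487 (Il6ra). With libraries 20 to 27 as a covariate Lif (-1.05, adjusted p = 0.426) and Bcl3 (-1.09, adjusted p = 0.167) missed the threshold for D53. Il6ra missed it in 22 of 27 alternatives for D18 and in 19 of 26 for D53.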

How the results depend on the processing

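Over all comparisons and alternatives, the values of single genes kept their direction and side of the threshold in 1925 cases, lost the threshold in 73 and gained it in 32. No value that passed under either setting changed sign, and 57 of the 1925 differed in sign while passing under neither setting. With libraries 20 to 27 as a covariate the genes past the test fell from 9 to 5 in RC/- D53 against RC/-, from 5 to 3 within the D53 line and from 7 to 4 in the D53 difference of differences. Under DESeq2 they rose from 0 to 1 within the D18 line and in RC/- D53 against RC/- D18. Leaving out single libraries gave 0 to 1 within the D18 line (1 without RC/- D18 replicate 20) and 3 to 5 within the D53 line (3 without RC/+ D53 replicate 11 or RC/- D53 replicate 25). Of the other pathway genes, as counted after the data were seen, the covariate moved 41 to 21 in RC/- D53 against RC/- and 7 to 3 within the D53 line; leaving out single libraries gave 0 to 2 within D18 and 1 to 7 within D53. Over all tested genes, the covariate moved the count past the test from 6805 to 1796 in RC/- D53 against RC/- and from 587 to 287 within the D53 line, and leaving out RC/- D18 replicates 20 to 22 moved it from 9305 to 6120 in RC/- D18 against RC/-. Within the D18 line the 60 became 2 without those replicates and 140 by DESeq2, with the other alternatives that left out no single library in between, and DESeq2 moved 60 to 273 between the edited cystic groups. The covariate moved the difference of differences from 3858 to 2337 genes for D18 and from 2545 to 403 for D53. The causes were not tested. Depth limits Lif, Il6 and Il31ra. No paired analysis was run, because the sample labels used here name no litter, and a litter effect was not modelled.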
